A study of Mus musculus with 18 samples.

Results

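The genes described here are 41 genes of complement and coagulation, of which 37 were measured among 22180 genes with a probe of their own on the array. The members were given by name, by a rule that sets no threshold on a measured value. A gene counted as measured where at least 1 of the 34472 probes carried its symbol and no other, and the probe with the highest mean over all arrays stood for the gene. C3 and Cpb2 had no probe of their own in the probe table, and Masp2 and Klkb1 were listed only on probes shared with Tardbp and Cyp4v3. The signal of these 4 members is therefore not analysed here. The 37 measured members comprised 7 of 8 starters of the lectin and classical pathways, 1 of 2 members of the alternative pathway convertase, all 6 terminal components and all 3 complement inhibitors. They further comprised all 4 vitamin K dependent proenzymes, 5 of 6 members of the cofactor, contact and factor XIII group, all 3 fibrinogen chains, all 6 anticoagulants and 2 of 3 genes of fibrinolysis.

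Livers came from male C57BL6 mice that were fed freely for 12 weeks, from 6 to 18 weeks of age. The 6 groups, with 3 biological replicates and 3 arrays each, were a low-fat diet with 10% of energy from fat and a high-fat diet with 45%, each given as a control diet, with PFOS or with PFNA. PFOS is perfluorooctane sulfonic acid and PFNA is perfluorononanoic acid, persistent surfactants with equally long fluorinated chains and different acid heads, and no source used here gives a dose. The title of the series asks how diet alters the effect of both compounds on fatty liver disease, so the comparisons set each compound against its own diet's control, the compounds against each other, and the diets against each other.

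Hepatocytes make most of the complement and clotting proteins of the blood. Complement is a cascade of proteases started by mannose-binding lectins, antibodies or spontaneous C3 turnover, and it ends in a pore of terminal components in the target membrane. Coagulation is a second cascade of liver-made proteases that ends in fibrin, held in check by protein C, protein S and inhibitors of the serpin family. Many of these genes depend on the hepatocyte factors HNF1, HNF4 and C/EBP, and several rise in the acute phase response, in which STAT3 acts downstream of interleukin 6.

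The promoters of 4 complement genes, C4bp, C8a, C8b and Mbl1, are printed first. They were among the members with the larger differences under PFOS on the high-fat diet, though C8a and C8b did not pass the adjustment. Other members that differed more than Mbl1, such as F11 and C9, are not printed. Each run is the 250 bases before the transcription start, 5′ to 3′ on the gene's own strand, from RefSeq on GRCm38.p6. Capitals mark matches to the HNF1 core letters GTTAAT on either strand and to the STAT letters TTCNNNGAA. The windows lie at chr1:130661619-130661868, minus strand (C4bp), at chr4:104876399-104876648, minus strand (C8a), at chr4:104766067-104766316, plus strand (C8b) and at chr14:41151206-41151455, plus strand (Mbl1).
C4bp: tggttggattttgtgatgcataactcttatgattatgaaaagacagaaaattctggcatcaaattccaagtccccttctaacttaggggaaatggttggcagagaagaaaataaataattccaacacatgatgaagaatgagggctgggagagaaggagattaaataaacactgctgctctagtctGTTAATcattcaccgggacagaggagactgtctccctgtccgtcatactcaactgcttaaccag
C8a: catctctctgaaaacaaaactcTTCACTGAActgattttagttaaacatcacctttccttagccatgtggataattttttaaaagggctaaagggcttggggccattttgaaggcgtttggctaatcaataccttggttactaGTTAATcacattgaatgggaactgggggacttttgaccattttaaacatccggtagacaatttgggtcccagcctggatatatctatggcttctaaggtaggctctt
C8b: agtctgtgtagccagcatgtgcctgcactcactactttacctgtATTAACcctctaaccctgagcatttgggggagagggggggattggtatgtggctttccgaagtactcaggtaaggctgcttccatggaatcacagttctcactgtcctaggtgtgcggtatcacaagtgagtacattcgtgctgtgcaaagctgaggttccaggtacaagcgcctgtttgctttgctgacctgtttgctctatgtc
Mbl1: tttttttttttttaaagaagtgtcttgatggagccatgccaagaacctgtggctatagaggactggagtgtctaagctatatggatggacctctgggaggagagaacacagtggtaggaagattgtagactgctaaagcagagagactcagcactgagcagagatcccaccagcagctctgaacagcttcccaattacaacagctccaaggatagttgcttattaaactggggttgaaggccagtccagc

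The C4bp window held GTTAAT from 64 to 59 bases before the start. The C8a window held it from 107 to 102 bases before the start, with a STAT match from 228 to 220. In C8b the match ran from 206 to 201 bases before the start and lay on the opposite strand, and the Mbl1 window held neither set of letters. RefSeq's table listed 33 promoters of 31 members, of which 27 were measured on the array. GTTAAT occurred in 9 of the 33 promoters (27.3%), against 6.43% of all 32851 promoters. The HNF4 letters CAAAGNNCA occurred in 5 (15.2%, against 5.49%), the C/EBP letters TTGCNNAA in 8 (24.2%, against 9.56%) and TTCNNNGAA in 6 (18.2%, against 7.02%). Of the members not measured, C3 and Klkb1 held the C/EBP letters and Masp2 held TTCNNNGAA. GTTAAT was not particular to the members with large differences. F13b and Fgb, which differed little under PFOS on the high-fat diet, held it, while F11 and C9 held only the C/EBP letters. Both strands were searched, and a match is a description of the letters and not a measured binding site.

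The measured members were among the brighter probes of the array. Their mean log2 signal ran from 5.79 for C1s1, a classical pathway protease, to 12.97, and 35 of 37 lay above 8, against a median of 4.48 over all values. The SD within a group had a median of 0.134 over members and groups. C1ra, C1s1 and C4b have near-identical copies in the mouse genome, so their signal may be shared with those copies. C1s1 alone had 2 probes.

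Cyp2b10, a cytochrome P450 gene of the CAR response, served as the check of exposed against control labels, with controls at 3.81 to 4.58 and every exposed array at 7.26 or above. These ranges do not tell PFOS from PFNA. On the first principal component of all probes, which held 17.9% of the variance, the 3 high-fat PFOS arrays lay at 27.80, 34.93 and 38.64. Replicate 3 of the low-fat PFOS group (32.88) and replicate 3 of the high-fat PFNA group (32.43) lay with them, while the other 13 arrays lay between −22.88 and −8.08. Results that rest on these 2 arrays, which stand apart from their own groups, are therefore given with and without them. The median of 5 exposure genes, Cyp2b10 among them, lay 2.09 and 1.79 above the low-fat control mean on the same 2 arrays. It lay 1.49 to 2.36 above that mean on the high-fat PFOS arrays. On the other low-fat PFOS arrays it lay 0.40 and 0.57 above, and on the other high-fat PFNA arrays 0.74 and 0.58. The mean log2 signal of the same genes did not set the 2 arrays apart. On low-fat PFOS replicate 3 it was 10.58, against 10.23 and 10.78 on the other arrays of that group. On high-fat PFNA replicate 3 it was 10.39, against 10.83 and 10.60. In bulk tissue, fewer hepatocytes and less RNA per hepatocyte cannot be told apart.

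**Figure D1:**
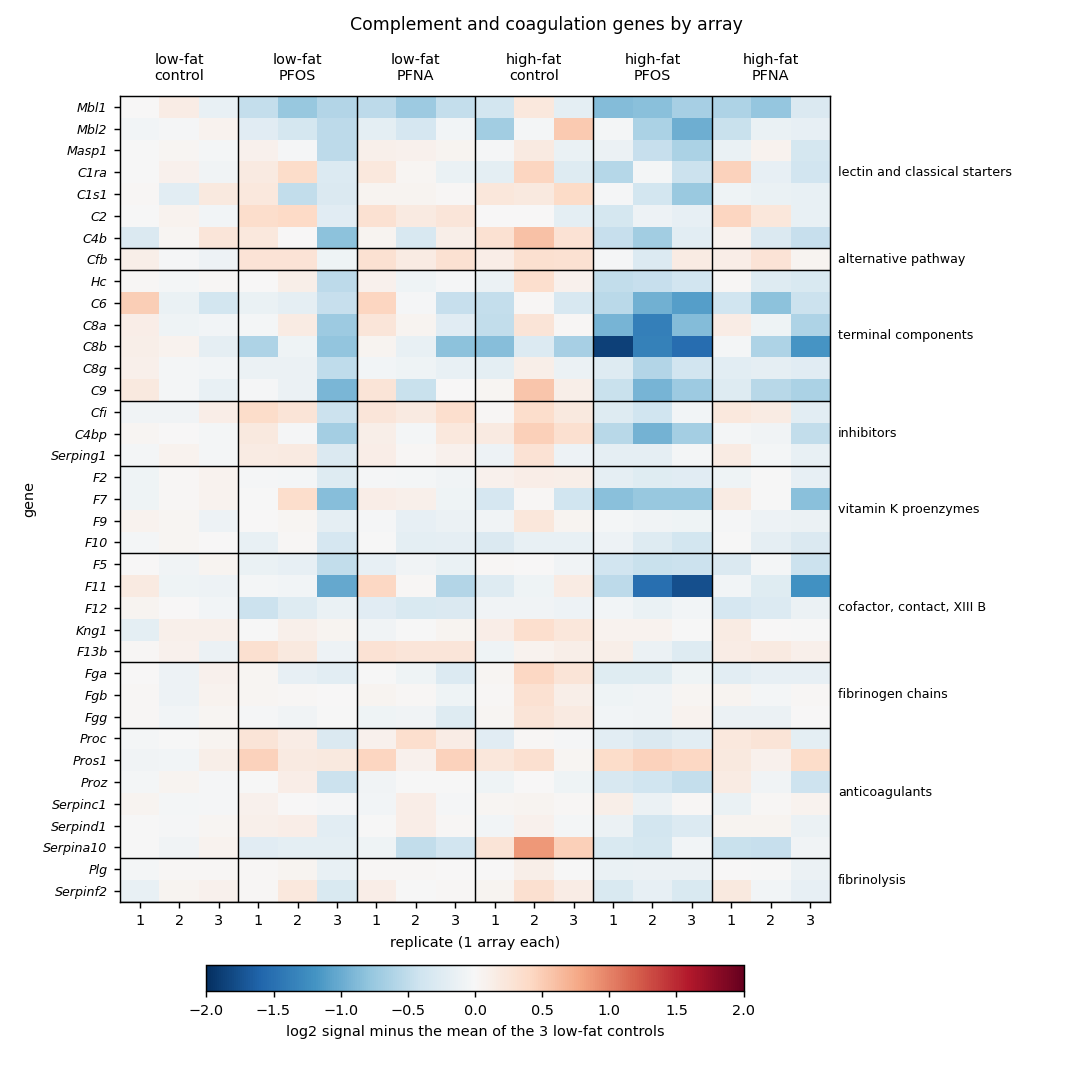
Heat map of the 37 measured members (rows, by role) on the 18 arrays (columns, by group and replicate), coloured by the log2 signal minus the mean of the low-fat control, on a scale from −2 to 2. The 3 high-fat PFOS arrays and replicate 3 of the low-fat PFOS group carry the most cells below 0, most of all in the terminal components and F11.

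The arrays with the most low members were those of the high-fat PFOS group and the 2 arrays that stood apart. On the 3 high-fat PFOS arrays 28, 31 and 29 of 37 members lay below all 3 high-fat controls. On the high-fat PFNA arrays the number was 13, 16 and 27, the last on replicate 3. On the low-fat PFOS arrays 8, 9 and 30 members lay below all 3 low-fat controls, the last again on replicate 3, and 8, 12 and 15 did so under PFNA. Over all probes the share below all 3 controls of the diet was 27.8%, 27.1% and 28.1% on the high-fat PFOS arrays and 26.2%, 25.8% and 29.8% on the high-fat PFNA arrays. It was 28.9%, 27.2% and 28% on the low-fat PFOS arrays and 25.8%, 26.8% and 27.6% on the low-fat PFNA arrays. Replicate 3 of the low-fat PFOS group thus stood with the high-fat PFOS arrays in its complement and coagulation genes too.

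PFOS on the high-fat diet gave the widest set of differences. Of the 37 measured members 3 fell and none rose at an adjusted p under 0.05 in limma's test over all probes, against 1.02% of all probes in either direction, 0.389% that fell and 0.632% that rose. The members that fell were C4bp, Serpina10 and Mbl1. The difference from the high-fat control was below 0 for 36 of 37 members, against 51.8% of all probes, and the median was −0.35 on the log2 scale, against −0.01. For 22 members the PFOS arrays lay wholly below the controls (8.68% of all probes), and for 1 they lay wholly above (9.71%). The unadjusted p was under 0.05 and the difference below 0 for 22 members (6.42% of all probes), and most of these did not pass the adjustment.

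Among the complement inhibitors, C4bp, whose product binds C4b and speeds the decay of the classical convertase, fell the most. Its log2 signal was 11.39, 11.69 and 11.53 in the high-fat controls and 10.66, 10.27 and 10.53 under PFOS. The groups did not overlap, and C4bp was lower by a log2 difference of −1.05 (SE 0.19, n = 3 per group), a 2.07-fold difference, with a limma adjusted p of 0.0144. Cfi, the protease that cuts C3b and C4b, differed by −0.43 (adjusted p = 0.301) and Serping1, the inhibitor of C1r, C1s and the MASPs, by −0.16 (adjusted p = 0.703). The call for C4bp was lost without replicate 2 or 3 of the controls or replicate 2 of PFOS, with adjusted p-values of 0.0698, 0.0573 and 0.0769.

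Of the 7 measured starters of the lectin and classical pathways, Mbl1, the serum mannose-binding lectin A, was the member that fell. It read 9.68, 10.25 and 9.85 in the high-fat controls and 9.18, 9.20 and 9.37 under PFOS, without overlap. The difference was −0.68 (SE 0.16, n = 3 per group) with a limma adjusted p of 0.0497, next to the threshold. The call was lost without replicate 2 (adjusted p = 0.186) or 3 of the controls and without any single PFOS array. C4b, the mouse C4 that forms the classical convertase, read 11.55, 11.83 and 11.53 in controls and 10.79, 10.55 and 11.04 under PFOS. The PFOS arrays lay below the controls here too, but the difference of −0.84 (SE 0.23) had an adjusted p of 0.0872. C1s1, the protease that cleaves C4 and C2, differed by −0.65 (adjusted p = 0.0890) on its brighter probe and by −0.74 (adjusted p = 0.0573) on the other, while the mean of both probes passed at −0.69 (adjusted p = 0.0142). Mbl2, Masp1 and C1ra differed by −0.48, −0.41 and −0.35 with overlapping groups, and C2, which supplies the protease of the classical convertase, by −0.15. Cfb, the matching protease of the alternative pathway, differed by −0.30 (adjusted p = 0.344).

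The 6 terminal components, which build the membrane attack pore, had the largest median difference of any role with more than 1 measured member, though none passed the adjustment. In all 6 the PFOS arrays lay below the high-fat controls, and the median difference was −0.77. C8a, the alpha chain of C8, read 10.32, 11.07 and 10.83 in controls and 9.89, 9.44 and 9.95 under PFOS. The difference was −0.98 (SE 0.24, adjusted p = 0.0603). C8b, the beta chain of C8, read 10.55, 11.12 and 10.74 in controls and 9.53, 10.05 and 9.87 under PFOS. It differed by −0.99 (SE 0.27, adjusted p = 0.0874), so the 2 chains that sit in the pore differed by almost the same amount. C8g, the lipocalin chain of C8, differed by only −0.35 (SE 0.13, adjusted p = 0.231). C9, the subunit that polymerises into the pore wall, read 10.97, 11.48 and 11.05 in controls and 10.48, 10.00 and 10.20 under PFOS. It differed by −0.94 (SE 0.23, adjusted p = 0.0555). Hc, the mouse C5 whose cleavage opens the terminal pathway, differed by −0.55 (adjusted p = 0.101), and C6, which joins C5b, by −0.61 (adjusted p = 0.259).

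**Figure D2:**
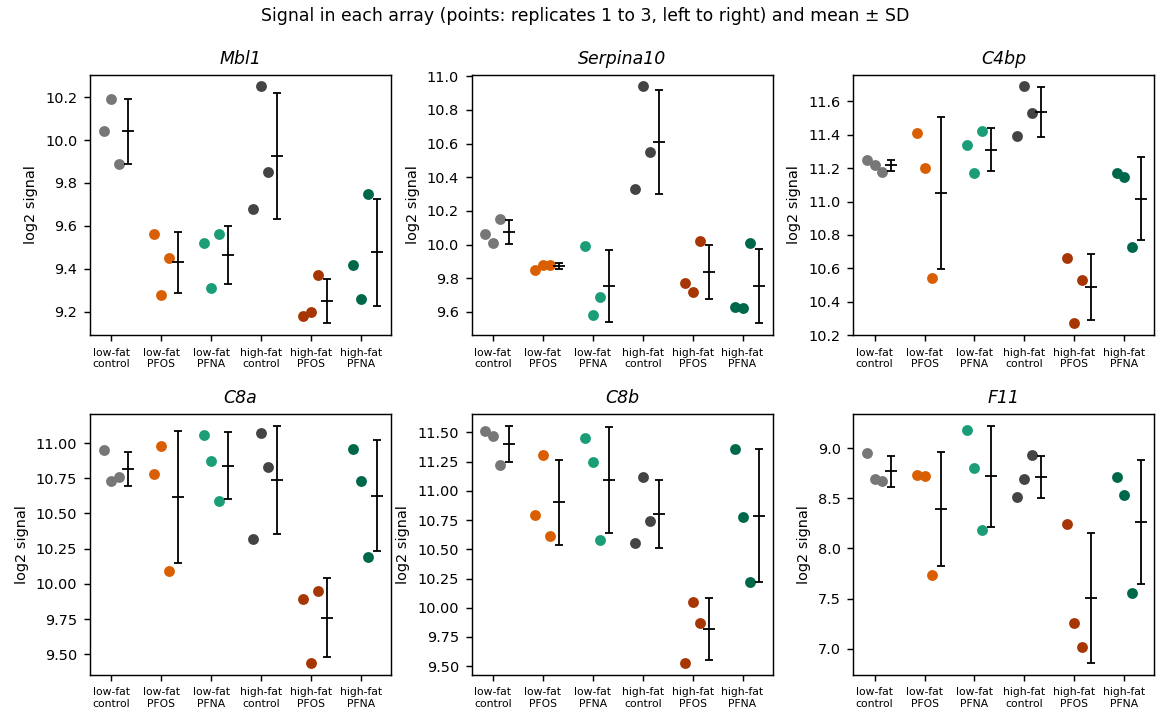
Log2 signal (vertical axis) of Mbl1, Serpina10, C4bp, C8a, C8b and F11 on every array (dots) with the mean and SD (bars, n = 3) of each group (horizontal axis). Mean Mbl1 is lower in all 4 exposed groups than in the control of the same diet, while C4bp, C8a, C8b and F11 are lowest under PFOS on the high-fat diet and on single arrays of other exposed groups.

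Among the coagulation genes, Serpina10, the protein Z dependent inhibitor of factors Xa and XIa, fell. It read 10.33, 10.94 and 10.55 in the high-fat controls and 9.77, 9.72 and 10.02 under PFOS. The groups did not overlap, the difference was −0.77 (SE 0.16, n = 3 per group) and the limma adjusted p was 0.0284. The call was lost without replicate 2 or 3 of the controls or replicate 1 or 2 of PFOS, with adjusted p-values up to 0.122. Proz, the cofactor of this inhibitor, differed by −0.34 (adjusted p = 0.328), Serpind1 (heparin cofactor II) by −0.25 (adjusted p = 0.366), Proc (protein C) by −0.16 (adjusted p = 0.711) and Serpinc1 (antithrombin) by −0.03 (adjusted p = 0.934). Pros1, the cofactor of protein C, was the 1 member above 0, at 8.42, 8.50 and 8.23 in controls and 8.56, 8.65 and 8.60 under PFOS. These arrays did not overlap either, with a difference of 0.22 (SE 0.13, adjusted p = 0.508). The anticoagulants thus held both the member that fell and the member that lay higher.

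F11, which encodes the factor XI that links contact activation to factor IX, had the largest difference of all members and also the widest error. It read 8.51, 8.69 and 8.93 in the high-fat controls and 8.24, 7.26 and 7.02 under PFOS. The difference was −1.20 (SE 0.35, adjusted p = 0.103), with a 95% interval from −1.93 to −0.47, and 1 PFOS array lay much nearer to the controls than the others. F12, which starts the contact pathway, differed by −0.00 (adjusted p = 0.994), and Kng1, the high molecular weight kininogen that carries factor XI, by −0.19 (adjusted p = 0.498). F5, the cofactor of factor Xa, differed by −0.41 (adjusted p = 0.118), and F13b, the carrier subunit of factor XIII, by −0.12 (adjusted p = 0.770).

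The vitamin K dependent proenzymes did not pass the test. F7, the partner of tissue factor, differed by −0.55 (adjusted p = 0.361), F2 (prothrombin) by −0.33 (adjusted p = 0.132), F9 by −0.14 (adjusted p = 0.658) and F10 by −0.05 (adjusted p = 0.911). The fibrinogen chains differed by −0.43 (Fga), −0.19 (Fgb) and −0.18 (Fgg), with adjusted p-values of 0.101, 0.467 and 0.501. Plg, the zymogen of plasmin, differed by −0.16 (adjusted p = 0.520) and Serpinf2, the plasmin inhibitor, by −0.43 (adjusted p = 0.156). The median difference by role ran from −0.77 in the terminal components over −0.48 in the starters and −0.43 in the complement inhibitors to −0.19 in the fibrinogen chains.

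The calls of this comparison moved with single arrays and with the 2 arrays that stood apart, which belong to neither group compared and enter only through the shared estimate of the spread. Without replicate 2 or 3 of the controls or replicate 2 of PFOS no member passed, without replicate 1 of PFOS 1 passed, and without replicate 3 of PFOS 2 passed. Without the 2 arrays that stood apart 11 members passed, all lower, against 1.13% of all probes that passed as lower. These were Mbl1, C4b, Hc, C8a, C8b, C9, C4bp, F7, F5, F11 and Serpina10, and the differences themselves did not move because they do not use those arrays. Those arrays were set apart in these same data, and many members lay low on them. Leaving them out tends to narrow the spread of such members, so the added calls are no independent support.

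**Figure D3:**
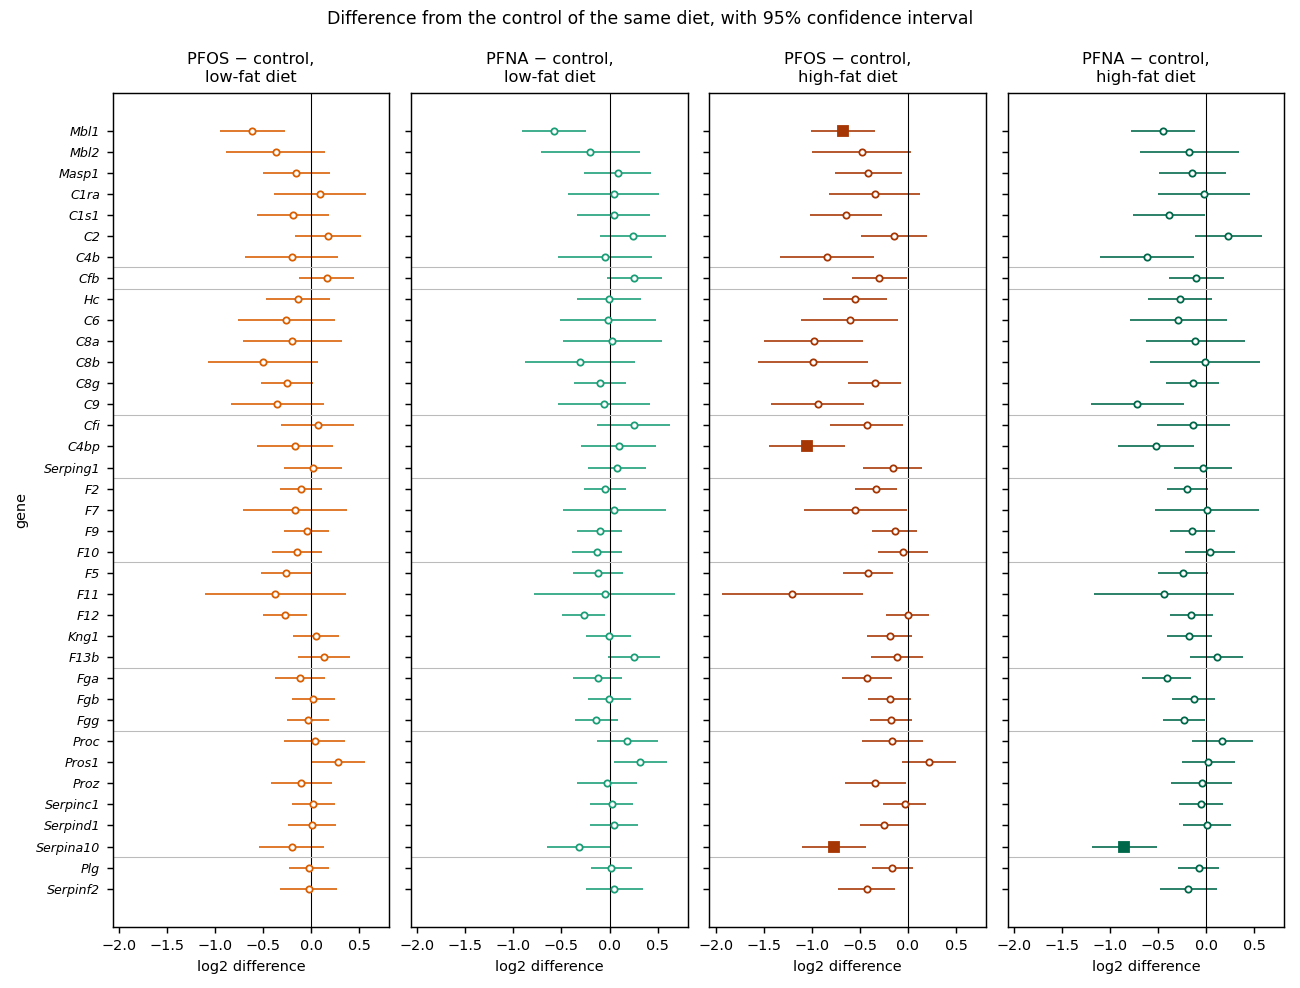
Log2 difference from the control of the same diet (horizontal axis, with 95% intervals) for each of the 37 measured members (vertical axis, by role), with 1 panel per compound and diet and filled squares for an adjusted p under 0.05. On the high-fat diet 36 of 37 members lie below 0 under PFOS and 30 under PFNA, against 25 and 20 on the low-fat diet.

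PFNA on the high-fat diet gave a narrower set. Serpina10 fell and no other member passed (0.113% of all probes in either direction, 0.0261% lower). It read 9.63, 9.62 and 10.01 under PFNA, below all 3 controls at 10.33, 10.94 and 10.55, with a difference of −0.85 (SE 0.16, n = 3 per group) and a limma adjusted p of 0.0460. The call was lost without replicate 2 or 3 of the controls or replicate 1 or 2 of PFNA, with adjusted p-values of 0.142, 0.0946, 0.166 and 0.154. The difference was below 0 for 30 of 37 members, against 51.5% of all probes, with a median of −0.15 against −0.01. The PFNA arrays lay wholly below the controls for 9 members and wholly above for none, against 6.89% and 6.83% of all probes.

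After Serpina10 the 4 largest differences under PFNA were in complement genes. C9 differed by −0.72 (adjusted p = 0.273), with PFNA arrays at 10.67, 10.37 and 10.30 against controls at 10.97, 11.48 and 11.05. C4b differed by −0.62 (adjusted p = 0.371), C4bp by −0.52 (adjusted p = 0.346) and Mbl1 by −0.45 (adjusted p = 0.335). C8a and C8b, which had among the largest differences under PFOS, differed by −0.11 and −0.02 under PFNA (adjusted p = 0.928 and 0.991). Their PFNA arrays were spread widely, at 10.96, 10.73 and 10.19 for C8a and at 11.36, 10.78 and 10.22 for C8b, and the lowest of each was replicate 3, which stood apart. Without that array the differences were 0.10 for C8a and 0.27 for C8b, and without replicate 2 of the controls they were 0.05 and 0.14, so their direction rested on single arrays. Without that array and its low-fat PFOS counterpart the median was −0.11 with 26 members below 0, Serpina10 differed by −0.98 (adjusted p = 0.0194) and remained the 1 member that passed (0.429% of all probes). Without replicate 2 of the controls the median was −0.07.

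On the low-fat diet no member passed under either compound, against 0.389% of all probes under PFOS and 0.566% under PFNA in limma's test. An unadjusted p under 0.05 occurred for 4 members under PFOS and 3 under PFNA (11.9% and 12.9% of all probes). By the probe that stood for each gene, Mbl1 had the largest difference under both. It read 10.04, 10.19 and 9.89 in the low-fat controls, 9.56, 9.28 and 9.45 under PFOS and 9.52, 9.31 and 9.56 under PFNA. Both exposed groups lay wholly below the controls, by −0.61 (SE 0.16, adjusted p = 0.114) and by −0.58 (SE 0.16, adjusted p = 0.106). The 2 probes of C1s1 disagreed here. Its dimmer probe differed by −0.50 under PFOS (limma adjusted p = 0.273) and −0.59 under PFNA (adjusted p = 0.144). Its brighter probe differed by −0.19 and 0.04.

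By the probe that stood for each gene, the other differences on the low-fat diet were smaller than those of Mbl1. Under PFOS C8b differed by −0.50 (adjusted p = 0.497), F11 by −0.37 (adjusted p = 0.725) and Mbl2, the second mannose-binding lectin, by −0.37 (adjusted p = 0.582). C8b read 11.51, 11.47 and 11.22 in the controls and 10.79, 11.31 and 10.61 under PFOS, and F11 read 8.95, 8.69 and 8.67 against 8.73, 8.72 and 7.74. In F11 the difference came from replicate 3, which stood apart, and without it the difference was −0.04. Under PFNA Serpina10 differed by −0.32 (adjusted p = 0.413), Pros1 by 0.32 (adjusted p = 0.298) and C8b by −0.31 (adjusted p = 0.700).

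As a group the members differed little from the low-fat control. Under PFNA 20 of 37 lay below 0 (52.3% of all probes), with a median of −0.01, as over all probes, and it ran from −0.04 to 0.04 without replicate 1 or 3 of PFNA. Under PFOS 25 of 37 lay below 0 (53.7%), with a median of −0.11 against −0.02. Without replicate 3 of the low-fat PFOS group 15 lay below 0 and the median was 0.05, so the direction of that median rested on 1 array. The PFOS arrays lay wholly below the controls for 6 members and wholly above for 1 (8.12% and 7.58% of all probes), and the PFNA arrays for 5 and 6 (9.32% and 10.1%).

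Set against each other, the compounds gave no member that passed on either diet, over 37 members on each of 2 diets. On the low-fat diet no probe at all passed (0%), the smallest adjusted p of a member was 0.998, and no member had an unadjusted p under 0.05 (3.92% of all probes). The 95% intervals of all 37 members contained 0 and 36 lay within 1 log2 unit of 0 on both sides, from −0.52 for C1ra to 1.05 for F11. The largest differences of PFNA from PFOS were 0.32 for F11, 0.30 for C9, 0.26 for C4bp and 0.24 for C6. Without replicate 3 of PFOS, which stood apart, these were −0.0050 for F11, 0.0133 for C9, 0.0050 for C4bp and 0.14 for C6. The median of 0.08 turned to −0.03 without that array and was 0.13 and 0.16 without replicate 1 or 2 of PFOS and 0.05 without replicate 1 of PFNA.

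On the high-fat diet the signal under the carboxylic acid PFNA lay below that under the sulfonic acid PFOS for only 6 of 37 members (50.8% of all probes), though 0.0029% of all probes and no member passed in limma's test. The median difference was 0.22, against −0.01 over all probes, and 8 members had an unadjusted p under 0.05, all higher under PFNA (7.26% of all probes in either direction). C8b had the largest difference, 0.97 with a 95% interval from 0.40 to 1.54 (adjusted p = 0.646), and C8a followed with 0.87, from 0.35 to 1.38 (adjusted p = 0.646). F11 differed by 0.76 (interval 0.03 to 1.49) and F7 by 0.55 (interval 0.02 to 1.09), both with an adjusted p of 0.682. The intervals of 29 members contained 0 and those of 33 lay within 1 log2 unit of 0. The PFNA arrays lay wholly above those of PFOS for 7 members and wholly below for 1 (5.13% and 5.14% of all probes).

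Without the 2 arrays that stood apart, 1 of them in the high-fat PFNA group, 5 members were higher under PFNA than under PFOS (1.48% of all probes in either direction). These were C8b (1.25, adjusted p = 0.0284), C8a (1.09, adjusted p = 0.0195), F7 (0.86, adjusted p = 0.0112), C4bp (0.67, adjusted p = 0.0285) and C2 (0.53, adjusted p = 0.0473). Without replicate 3 of PFNA alone no member passed, and C8b differed by 1.25 with an adjusted p of 0.108. On that array C8a, C8b and F7 read 10.19, 10.22 and 9.23 against 10.73 to 10.96, 10.78 to 11.36 and 10.05 to 10.22 on the other arrays of that group. It was set apart because it lay with the high-fat PFOS arrays over all probes of these same data. Leaving it out therefore tends to widen the gap between the compounds, so the 5 calls are no independent support for a difference.

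The diets without a compound differed in no member (limma, 0.0029% of all probes called), and 2 members had an unadjusted p under 0.05 (6.45% of all probes). Serpina10 read 10.33, 10.94 and 10.55 in the high-fat controls and 10.06, 10.01 and 10.15 in the low-fat controls. The high-fat arrays lay wholly above, by 0.53 (SE 0.16, adjusted p = 0.585). C8b lay wholly below on the high-fat diet, by −0.60 (SE 0.27, adjusted p = 0.771), and C4b and C4bp differed by 0.39 and 0.32 (adjusted p = 0.832 and 0.830). The high-fat controls lay wholly above the low-fat controls for 8 members and wholly below for 3 (4.84% and 5.54% of all probes). The median of 0.03 ran from −0.01 without replicate 2 of the high-fat controls to 0.10 without replicate 1.

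The test of whether diet altered the response to a compound called no member and no probe (0%) for either compound. For PFOS the interaction was below 0, that is lower on the high-fat diet, for 35 of 37 members (47.5% of all probes), with a median of −0.26 against 0.02. It was −0.88 for C4bp (SE 0.26, adjusted p = 0.759), −0.83 for F11 (SE 0.49, adjusted p = 0.814), −0.78 for C8a (SE 0.35, adjusted p = 0.763) and −0.64 for C4b (SE 0.33, adjusted p = 0.797), and 4 members had an unadjusted p under 0.05 (6.36% of all probes). Without the 2 arrays that stood apart the interaction of C4bp was −1.14 and passed (adjusted p = 0.0208, 0.241% of all probes), while without replicate 3 of low-fat PFOS alone the adjusted p was 0.171. That replicate was set apart because it lay with the high-fat PFOS arrays in these same data. Leaving it out tends to enlarge this interaction, so the call is no independent support for it. For PFNA the interaction was below 0 for 32 members (49.3% of all probes), with a median of −0.13 against 0.00, and was largest for C9 (−0.66), C4bp (−0.61), C4b (−0.57) and Serpina10 (−0.53), all with an adjusted p of 0.943. Without replicate 2 of the high-fat controls 23 members lay below 0 and the median was −0.07, and without replicate 1 of high-fat PFNA it was −0.20. An unadjusted p under 0.05 occurred for 2 members (5.18% of all probes).

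Over all 6 groups at once, limma's F test called 1 member, Serpina10 (F = 8.50, adjusted p = 0.0431), against 0.96% of all probes. With 1 array left out, the call for Serpina10 was kept only without replicate 3 of low-fat PFOS, replicate 1 of low-fat PFNA, replicate 1 of the high-fat controls or replicate 3 of high-fat PFNA. C8b (adjusted p = 0.0541), Mbl1 (0.0542) and C4bp (0.0631) came next. An unadjusted p under 0.05 occurred for 13 of 37 members (14.1% of all probes). Serpina10 was highest in the high-fat controls, with a mean of 10.61 ± 0.31 (SD, n = 3), followed by the low-fat controls at 10.07 ± 0.07, while the 4 exposed groups had means from 9.75 to 9.87.

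**Figure D4:**
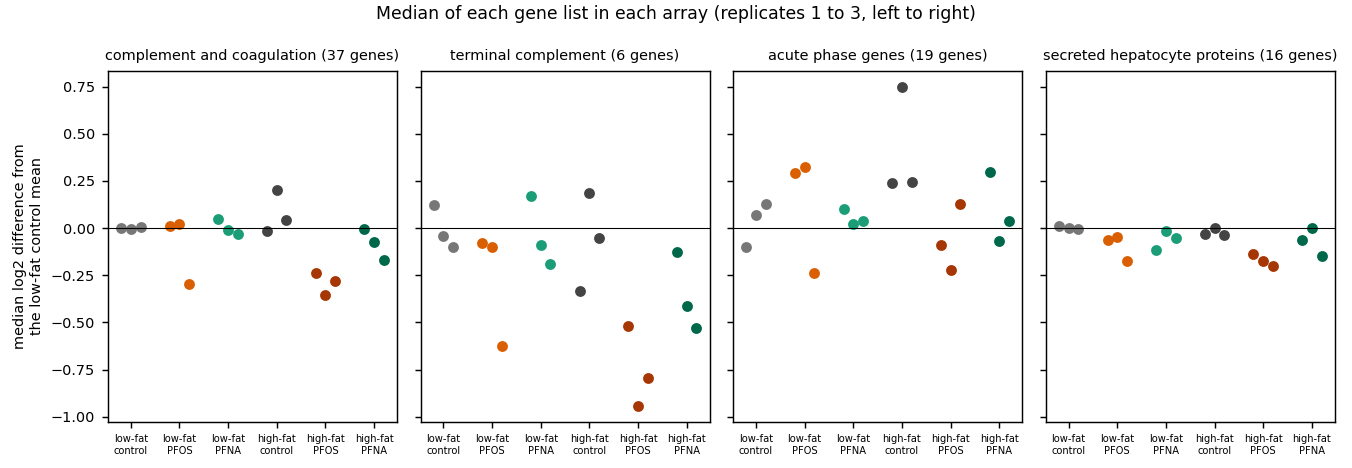
Median over the genes of 4 lists (panels) of the log2 signal minus the mean of the low-fat control, 1 point per array, by group on the horizontal axis. The members lie between −0.35 and −0.24 and the terminal components between −0.94 and −0.52 on the high-fat PFOS arrays, while the acute phase list stands highest in the high-fat controls, from 0.24 to 0.75.

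Genes of the same pathways outside the member list showed few calls. Of 21 measured complement genes none passed under PFOS on the high-fat diet (1.02% of all probes), with a median of −0.17. Under PFNA on the low-fat diet, where 0.566% of all probes passed, 1 of them rose. This was Cfp, which encodes properdin, the stabiliser of the alternative convertase. Cfp lay between 7.82 and 8.29 under PFNA and between 6.53 and 7.20 in the low-fat controls, a difference of 1.23 (SE 0.23, limma adjusted p = 0.0211), and differed by 0.88 under PFOS (adjusted p = 0.122). The call was lost without replicate 1 or 2 of the controls or replicate 2 or 3 of PFNA, with adjusted p-values up to 0.127. Properdin is made by myeloid cells, and the mean signal of 11 Kupffer cell markers lay between 7.90 and 8.22 under PFNA and between 7.12 and 7.82 in those controls. Its part in the result was not tested.

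Of 22 other coagulation genes, Vkorc1, the enzyme that regenerates vitamin K, fell on the low-fat diet. It lay between 10.71 and 10.99 in the low-fat controls, between 10.17 and 10.51 under PFOS and between 10.27 and 10.39 under PFNA. The differences were −0.56 (SE 0.12, limma adjusted p = 0.0460) and −0.55 (SE 0.12, adjusted p = 0.0371), where 0.389% and 0.566% of all probes passed. Leaving out any 1 control or replicate 1 or 2 of PFOS ended the call for PFOS (adjusted p up to 0.193). Leaving out control 1 or 2 or any PFNA array ended it for PFNA (adjusted p up to 0.187). On the high-fat diet they were −0.32 and −0.33 (adjusted p = 0.221 and 0.342), again without overlap. F3, or tissue factor, the trigger of coagulation, lay higher without overlap in all 4 exposed groups, by 0.82 and 0.75 on the low-fat diet and 0.80 and 0.79 on the high-fat diet for PFOS and PFNA. None of these passed, with adjusted p-values of 0.0748 and 0.0802 on the low-fat diet and 0.0509 and 0.124 on the high-fat diet. Each of these differences passed under at least 1 alternative setting. Under PFOS on the high-fat diet 1 of the 22 passed (1.02% of all probes), Hgf, a growth factor of the plasminogen family, which fell by 0.94 (SE 0.19, adjusted p = 0.0271). That call was lost without any 1 of the controls or replicate 1 or 2 of PFOS, with adjusted p-values up to 0.116.

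Transcription factors of hepatocytes and acute phase genes gave 1 call each in the high-fat PFOS group, where 1.02% of all probes passed and 51.8% lay below 0. Of 14 measured factors 1 fell, Foxa3, by 0.88 (SE 0.18, limma adjusted p = 0.0292), and Hnf4a, which lay between 9.90 and 10.16 against 10.55 to 10.74 in controls, differed by −0.60 (adjusted p = 0.103). Of 19 acute phase genes outside complement and coagulation 1 fell, Steap4, a metalloreductase, by 1.39 (SE 0.24, adjusted p = 0.0128), and 17 lay below 0 with a median of −0.65. Under PFNA on the high-fat diet none of the 19 passed (0.113% of all probes), 18 lay below 0 (51.5% of all probes) and the median was −0.63. The call for Foxa3 was lost without control 2 or 3 or any 1 PFOS array (adjusted p up to 0.128), and that for Steap4 without control 2 or 3 or replicate 2 of PFOS (adjusted p up to 0.0721). The median of the acute phase list lay 0.24, 0.75 and 0.24 above the low-fat control mean on the 3 high-fat control arrays and between −0.22 and 0.13 under PFOS.

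Secreted hepatocyte proteins and hepatocyte markers gave no call in this group, where 1.02% of all probes passed and 51.8% lay below 0. Of 16 secreted hepatocyte proteins such as albumin and transthyretin 14 lay below 0 under PFOS on the high-fat diet, with a median of −0.16. All 8 hepatocyte markers lay below 0 with a median of −0.20, and their mean log2 signal per array lay between 12.38 and 12.51, against 12.60 to 12.76 in the high-fat controls. The 11 Kupffer cell markers lay between 7.33 and 7.77, within the range of those controls, 6.90 to 8.06. Of 8 stellate cell and fibroblast markers none passed, 7 lay below 0 and the median was −0.42. Their mean lay between 6.96 and 7.23 under PFOS and at 8.12, 7.04 and 7.27 in the high-fat controls, of which replicate 1 stood highest. The hepatocyte marker mean was also lower on the low-fat diet. It lay between 12.39 and 12.64 under PFOS and between 12.45 and 12.60 under PFNA, against 12.69 to 12.79 in the low-fat controls. Under PFNA on the high-fat diet it lay between 12.31 and 12.63. Albumin, transthyretin and Apoa1 are on both the secreted and the hepatocyte list, and Hnf4a is also among the factors. C1qa, C1qb, C1qc and Vsig4 are on both the Kupffer cell list and the list of other complement genes. The part of the acute phase response, of the hepatocyte transcription factors, of the stellate cell and fibroblast markers and of the share of hepatocyte RNA in the members' lower signal was not tested.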

How the data were processed

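The deposited values, 1 for each probe on each array, were read as log2 signal from their range, since the labels do not name the base. Per the submitters' processing notes, the authors used Transcriptome Analysis Console, and that the deposited values are log2 is an inference. For background correction, normalization and summarization the method is not given in the sources used here. Genes were named from the series' probe table, and all 37 measured members matched RefSeq by Entrez number. Array medians ran from 4.43 to 4.59 and correlations between arrays from 0.9749 to 0.9913, and the number of arrays limits the precision.

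Differences were tested with limma 3.58.1 in R 4.3.3, with 1 mean per group over 18 arrays, 12 residual and 5.21 prior degrees of freedom, and 9 contrasts plus an F test. The p-values were adjusted by Benjamini and Hochberg over all 34472 probes, and a gene was called, or is said to rise or fall, at an adjusted p under 0.05. Differences are given as the first group minus the second, in log2 units, with intervals of 95%. The code was tested on simulated data. Members are named by role, with every called member or the 4 largest differences of a comparison, and up to 3 genes of each other list. The list of members was proposed, and the other lists were written, with earlier results of these data known.

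Alternatives covered quantile normalization, a filter on dim probes, trended robust variances, the mean of all probes of a gene, the replicate number as a block, the compared groups alone, each array left out in turn and, added after seeing the data, the absence of the 2 arrays that stood apart. Members with no probe of their own were left out of all comparisons of signal and kept in the promoter counts.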

Additional observations from a re-analysis of the deposited data

How the results depend on the processing

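With 3 arrays per group, calls near the threshold depended on the setting while most differences kept their direction. Over the alternatives, 119 counts of called members stayed within 1.5 times of the reported count, 12 were higher and 22 lower. Of the differences of single genes, 1090 kept their direction and side of the threshold, 36 gained a call, 53 lost it and 13 turned. Apart from F11, those that turned had small reported differences. F11 for PFNA against PFOS on the low-fat diet had the largest difference of that comparison, 0.32. It was −0.0050 without the 2 arrays that stood apart, and −0.0050 to 0.5933 over the arrays left out in turn. For PFNA on the high-fat diet C8a was 0.1050 and C8b 0.2667 without the 2 arrays, and they ran from −0.3233 to 0.1050 and from −0.3033 to 0.2667 without 1 array at a time. For PFOS on the high-fat diet F12 then ran from −0.0200 to 0.0250, Serpinc1 from −0.0883 to 0.0267 and F10 from −0.1200 to 0.0150. F3 under PFOS on the high-fat diet passed with quantile normalization (limma adjusted p = 0.0414), the filter on dim probes (0.0275), trended robust variances (0.0372), without replicate 1 of the controls (0.0227) and without the 2 arrays (0.0408). On the low-fat diet F3 passed with the filter under PFOS (0.0393) and PFNA (0.0424) and with the compared groups alone under PFNA (0.0441), and under PFNA on the high-fat diet it passed without replicate 1 of the controls (0.0472). For PFOS on the high-fat diet, 7 members passed with the filter on dim probes, 6 with trended robust variances and 1 with the compared groups alone, against 3. Without the 2 arrays 11 passed, and 2.93% of all probes did so in either direction, against 1.02% with them. Without these arrays 5 members passed for PFNA against PFOS on the high-fat diet, 1 for the interaction of diet with PFOS and 8 in the F test. Since those arrays were chosen from these same data, calls gained without them are no independent support. The F test called 2 with quantile normalization, 4 with the filter, 3 with trended robust variances and 2 with the mean of all probes, against 1. For PFNA on the high-fat diet 0 passed with the compared groups alone. Leaving out 1 array at a time gave 0 to 4 members for PFOS and 0 to 1 for PFNA on the high-fat diet, 0 to 5 in the F test and 0 in the other contrasts. The causes of these changes were not tested. The filter leaves fewer probes to adjust over and also changes the shared variance estimate, and their parts were not separated. A count given without the share of all probes at its setting does not show whether the members gained more calls than other probes.

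The replicate numbers of the titles showed no general pairing of the samples. The deviations of same-numbered arrays from their group means had a median correlation of −0.0012 over 45 pairs (−0.0723 to 0.4211, above 0.1 in 3). Over 90 differently numbered pairs it was 0.0053 (−0.2788 to 0.2238, above 0.1 in 2). Both arrays that stood apart carry replicate number 3. A median near 0 cannot exclude a pairing or batch shared by some arrays. With the replicate number as a block, 4 members passed for PFOS and 0 for PFNA on the high-fat diet, where Serpina10 had a limma adjusted p of 0.0549, and Mbl1 under PFOS had 0.0590. Vkorc1 lost its calls on the low-fat diet (0.0657 under PFOS and 0.0582 under PFNA). Under PFOS on the high-fat diet C9 (0.0396), F11 (0.0376) and F3 (0.0448) gained one, and the block changed no other call of a named gene.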
